A study of Mus musculus with 8 samples.

Results

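The genes examined are 39 haploid spermatid genes, whose products build the head, the tail and the packed chromatin of the sperm cell. They were found by an exact match of the gene symbol in the gene assignments of the deposited peak table, and 36 of the 39 had at least 1 assigned peak. Together they held 90 of the 87144 regions that result when overlapping ATAC-seq peaks of all libraries are merged. They were chosen by the role of their products and not by a rule on accessibility values, but with earlier results of these data known.

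ATAC-seq, in which a transposase cuts and tags open DNA, was applied to eGFP-positive germ cells from the testes of PIWIL2-eGFP mice, a line in which the Piwil2 promoter drives eGFP in germ cells up to early spermatids. All mice, the controls included, were fed 100 mg/kg WIN 18,446, a blocker of retinoic acid (RA) synthesis, daily for 7 days from 2 days postpartum (dpp). The 0 h mice were collected without RA, and the others at 18, 48 or 120 h after 200 µg RA was injected at 9 dpp. Each of the 4 timepoints had 2 libraries, and each library came from 1 mouse; the methods name a C57BL/6 x SJL background and the sample labels a C57BL/6 x 129s4/SvJae cross. The study takes these timepoints as undifferentiated, A1/A2, A3 and B spermatogonia, so that no cell in the series was meant to have entered meiosis.

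Spermatids are the haploid cells left after meiosis. They replace histones first by transition proteins and then by protamines, form the acrosome that carries the enzymes and binding proteins for meeting the egg, and grow a flagellum with dense fibres, a fibrous sheath and a sleeve of mitochondria. Many of the genes for this work are transcribed only after meiosis, often from short promoters bound by the testis form of the cAMP-responsive factor CREM and served by a relative of the TATA-binding protein encoded by Tbpl1. Spermatogonia, the cells sorted here, stand several divisions and the whole of meiosis before that stage.

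The libraries held between 24643 and 72215 peaks, and the smallest peak of each had a summit of 24 or 25 units of tag coverage. The signal where a library had no peak was not measured, so a missing peak is not an absence of signal. The 0 h libraries held the most peaks, and 120 h replicate 2 the fewest. Of 7 germ cell markers, 6 had a peak at their start in all 8 libraries, with Nanos3 in 2 libraries as the exception. Of the markers of other testis cells, 1 of 6 Sertoli genes (Wt1), 1 of 3 peritubular genes (Acta2), 0 of 5 Leydig and 0 of 4 macrophage genes had one in all 8 libraries. The other Sertoli and peritubular markers had one in 2 to 7 libraries, 4 of the Leydig and 2 of the macrophage genes had none in any, and the part of other cells in the values below was not tested.

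Most of the spermatid genes had a peak assigned to them, but fewer had one at their own start. An assigned peak was present in both 0 h libraries for 35 of the 39 genes, or 89.7%, beside 78.3% of the 21882 protein coding genes. At 18, 48 and 120 h the numbers were 30, 27 and 28, where 65.9%, 65.5% and 65.4% of all genes were counted. A peak in all 8 libraries was assigned to 26 genes (66.7%, beside 60.4% of all genes). The table assigns peaks up to 10 kb from a gene, so these counts include peaks that lie at neighbouring genes. Counting only peaks inside the gene or within 1000 bp of its start, 24, 19, 18 and 18 genes had one in both libraries of 0, 18, 48 and 120 h, and these shares of 61.5%, 48.7%, 46.2% and 46.2% were below the 70.7%, 56%, 56.1% and 56.4% of all genes.

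Within 1000 bp of the transcription start, 20 of the 39 genes had a peak in both 0 h libraries, and 16, 16 and 13 at 18, 48 and 120 h. Among all genes the shares were 60.6%, 46.6%, 47.5% and 48.4%. All 8 libraries had a start peak at 12 genes (30.8%, beside 42.3% of all genes), and 16 genes had none in any library (41%, beside 36% of all genes). The count was repeated with only the 24643 highest peaks of every library. The start was then open at 14, 14, 15 and 13 of the 39, beside 44.2%, 43.1%, 44.3% and 44.1% of all genes. This setting gives every library the same number of peaks, so it cannot show a loss of peaks shared by the whole genome. The cause of the decline after 0 h was not tested.

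**Figure D1:**
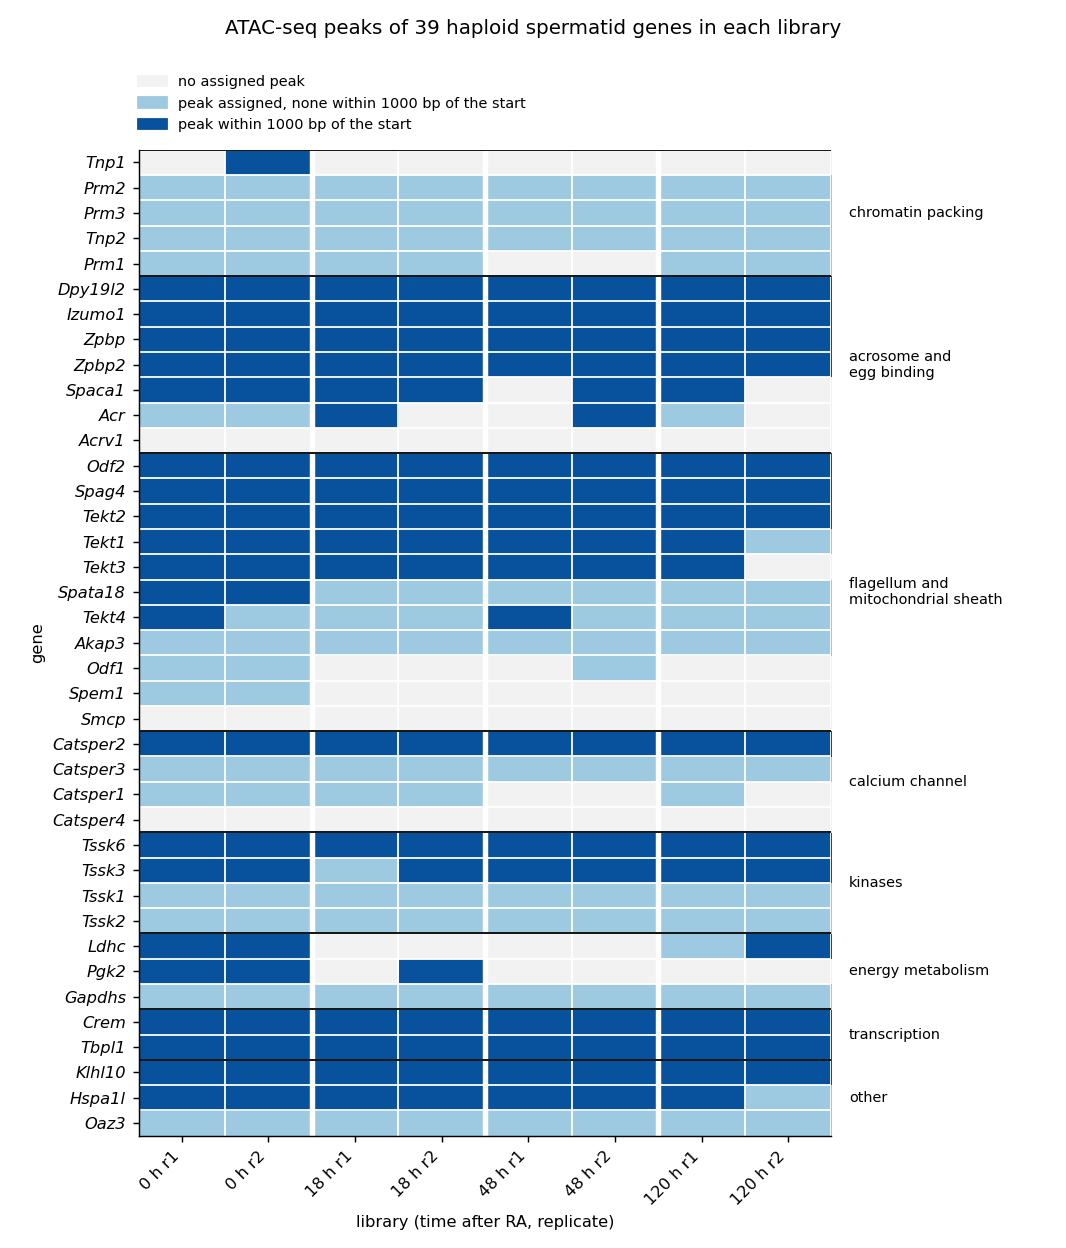
Each row is a gene, each column a library, with genes ordered by the role of their product. Dark blue marks a peak within 1000 bp of the start, light blue an assigned peak elsewhere and grey no assigned peak. The 12 rows that are dark throughout include 4 genes of the acrosome group and 3 of the flagellum group, whereas no gene of the chromatin packing group is among them.

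The genes were not alike in this respect. The start was open in all 8 libraries at 4 of 7 genes of the acrosome and egg binding group, 3 of 11 of the flagellum and mitochondrial sheath group, both regulators of transcription, 1 of 4 kinases, 1 of 4 calcium channel subunits and 1 of 3 remaining genes. It was so at 0 of 5 chromatin packing genes and 0 of 3 genes of energy metabolism. These groups are small, and no test of the difference between them was made.

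A second list of 51 postmeiotic genes, likewise chosen with earlier results of these libraries known, had a start peak in all 8 libraries at 8 genes (15.7%) and in none at 26 genes (51%). A list of 38 meiotic prophase genes had one in all 8 libraries at 30 genes (78.9%) and in none at 4 genes (10.5%). The spermatid genes thus lay between these lists at every timepoint, below all genes for start peaks and above all genes for any peak assigned within 10 kb.

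**Figure D2:**
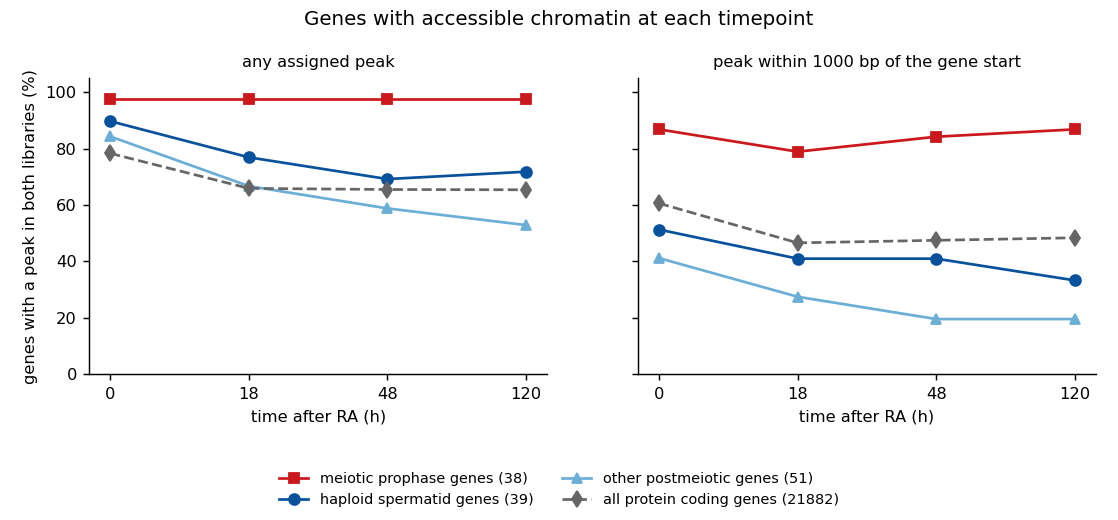
The percentage of genes with a peak in both libraries of a timepoint is plotted against time after RA, on the left for any assigned peak and on the right for a peak within 1000 bp of the gene start. At the start, 51.3% of the haploid spermatid genes were open at 0 h and 33.3% at 120 h, beside 86.8% of the meiotic prophase genes at both timepoints.

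The chromatin packing genes had no start peak that 2 libraries shared. Prm1 and Prm2, the protamines, Prm3, a small protein encoded between Prm2 and Tnp2, and Tnp2, transition protein 2, stand in a row on chromosome 16, and all their peaks fell into the same pair of regions. The larger, chr16:10784723-10786105 (mm10), had its summit 32 bp inside Socs1, an inhibitor of cytokine signalling next to Tnp2, and 3151 bp from the start of Tnp2. Its summit height was 332 and 383 in the 0 h libraries, 98 and 152 in those of 18 h, 135 and 120 in those of 48 h, and 264 and 206 in those of 120 h. The 120 h libraries lay between the 0 h libraries and those of 18 and 48 h, with no overlap among these 3.

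The smaller region, chr16:10786311-10786735, was 960 bp upstream of the Socs1 start and the sole region of Prm1, whose own start was 10327 bp away. It measured 113 and 172 in the 0 h libraries, 76 and 90 in those of 18 h, and 168 and 108 in those of 120 h, without a peak in either 48 h library. Both regions contain a CpG island. Tnp1, transition protein 1 on chromosome 1, had a single peak at its start, with a height of 53 in 0 h replicate 2, and none in the other 7 libraries.

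Other assignments also pointed to neighbours. Of the 90 regions, 32 (35.6%) were nearer to the start of another gene than to that of the spermatid gene, 17 lay within 1000 bp of another gene's start and not of the spermatid gene's, and 23 lay at the spermatid gene's start. For all regions, the share nearer to a neighbour, or only at a neighbour's start, was not counted. Whether these counts are particular to the spermatid genes was therefore not tested. Oaz3, a testis inhibitor of polyamine synthesis, Akap3, an anchor protein of the fibrous sheath, and Gapdhs, the sperm glyceraldehyde phosphate dehydrogenase, had a peak in all 8 libraries and none at the starts assigned to them. For Oaz3 it lay 72 bp from the start of Mrpl9, for Gapdhs 21 bp from that of C630016N16Rik and for Akap3 88 bp from that of Ndufa9, while a further Akap3 region lay 22006 bp from its start. In the GENCODE annotation, however, the summit of the Oaz3 region falls in an intron of Oaz3, so annotated starts of Oaz3 differ. The RefSeq span of Gapdhs also reaches upstream of the start used here.

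Tssk1 and Tssk2, kinases of the spermatid, shared a region 80 bp upstream of Dgcr2, a membrane protein gene, and 2395 bp upstream of Tssk1. Its height was 258 and 424 in the 0 h libraries, 121 and 200 in those of 18 h, 140 and 148 in those of 48 h, and 384 and 304 in those of 120 h. The 0 h and 120 h libraries overlapped, and both were above all 18 h and 48 h libraries.

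Acrv1, an acrosomal antigen, Smcp, a cysteine-rich protein of the mitochondrial capsule, and Catsper4, a subunit of the sperm calcium channel, had no assigned peak in any library. Among all protein coding genes, 19.3% had none. A peak in both 0 h libraries and in both libraries of no later timepoint was found at 4 genes (10.3%, beside 8% of all genes): Acr, the protease acrosin, Odf1, an outer dense fibre protein, Pgk2, the sperm phosphoglycerate kinase, and Spem1, which acts in the shedding of cytoplasm. Only Spem1 of these had no peak in any single later library (2.56%, beside 3.32% of all genes). At the start itself this pattern was found at 3 genes (7.69%, beside 8.74%), namely Ldhc, the sperm lactate dehydrogenase, Pgk2 and Spata18, a mitochondrial quality control gene. Spata18 alone had no start peak in any later library (2.56%, beside 3.45%).

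Heights could be compared over time in 28 regions that every library called, 12 of them at the start of a spermatid gene, 10 at the start of another gene alone and 6 at neither. As deposited, the median log2 change against 0 h over all 15536 such regions was -1.23, -1.36 and -0.75 at 18, 48 and 120 h. The heights were therefore also compared relative to the median of each library, where the median change of all regions at 120 h was 0.14. The p-values as deposited rest on 1 variance shared by all regions, and can be too small. In these bulk libraries, fewer cells with an open site and a less open site in each cell cannot be told apart.

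At 18 h and 48 h the regions of the spermatid genes moved with the rest. As deposited, 26 of 28 were lower at 18 h than at 0 h and 28 of 28 at 48 h (limma, adjusted p under 0.05), beside 92.3% and 93.3% of all regions, and 0 were higher, beside 0.296% and 0.328%. Leaving out 0 h replicate 2 reduced these numbers to 9 at 18 h and 17 at 48 h, beside 54.8% and 70.1%, and leaving out 18 h replicate 1 gave 11 at 18 h, beside 48.2%. Relative to the library median 0 of 28 passed in either direction at both times, beside 0.225% lower and 1.25% higher of all regions at 18 h and 1.51% and 3.26% at 48 h, and 3 of 28 had an unadjusted p under 0.05 at each. Between 18 h and 48 h 0 of 28 changed on either scale, and 0 had an unadjusted p under 0.05, beside 0.00644% of all regions lower and 0% higher as deposited, and 0% each way relative to the library median.

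At 120 h the regions spread out more. As deposited, 8 of 28 were lower than at 0 h and 0 higher, beside 44.8% and 0.882% of all regions, with a median log2 change of -0.60 and a range from -2.06 to 0.78, and 13 of 28 had an unadjusted p under 0.05. Relative to the library median 7 of 28 were higher and 4 lower, beside 23% and 15.8% of all regions, with a median of 0.29 and a range from -1.17 to 1.67. Against 48 h, 7 of 28 were higher at 120 h as deposited, beside 23.7%, and 0 lower, beside 0.18%; relative to the library median 4 were higher and 2 lower, beside 9.47% and 7.45%. Single libraries decided part of these counts: relative to the library median 3 regions were higher than at 0 h without 0 h replicate 1 and 2 without 120 h replicate 2, beside 12.5% and 8.42% of all regions. There 2 were lower without 0 h replicate 2, 120 h replicate 1 or 120 h replicate 2, beside 12.3%, 14.1% and 8.98%. Against 48 h as deposited, 1 was higher without 48 h replicate 1, 48 h replicate 2 or 120 h replicate 1, beside 0.251%, 1.45% and 2.19%, and 15 without 120 h replicate 2, beside 50.4%. Apart from those lower as deposited, the shares are close to those of all regions, and the direction of single regions depends on the scale, so both values are given below.

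**Figure D3:**
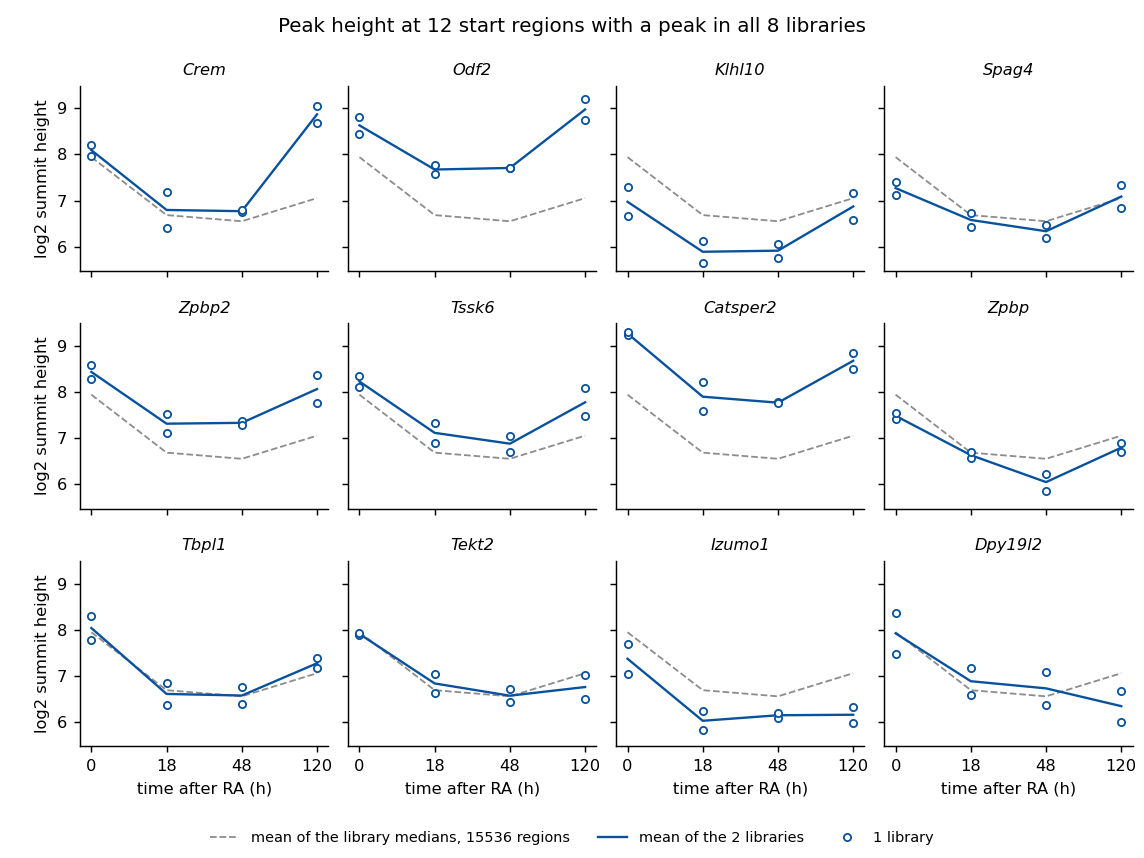
The log2 summit height at the 12 start regions is plotted against time after RA, with open circles for the libraries, a solid line for the mean of the 2 libraries of a timepoint and a dashed line for the mean of the library medians over 15536 regions. Panels run from the largest rise at 120 h relative to the library median (Crem, 1.67) to the largest fall (Dpy19l2, -0.69).

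Crem, the regulator named above, had the largest positive log2 change of the 12 start regions at 120 h, against 0 h and against 48 h, on both scales. The summit of its start region, chr18:3336675-3338038, lay 149 bp inside the gene, in a CpG island. It measured 252 and 296 in the 0 h libraries, 85 and 145 in those of 18 h, 107 and 111 in those of 48 h, and 531 and 413 in those of 120 h. Both 120 h libraries were above all 6 others. Against 48 h the log2 change was 2.10 ± 0.37 (SE; limma, adjusted p = 1.61e-05) as deposited and 1.60 relative to the library median (adjusted p = 0.00552, and 0.0832 without 48 h replicate 2). Against 0 h it was 0.78 ± 0.37 (adjusted p = 0.0731) as deposited and 1.67 ± 0.22 relative to the median (adjusted p = 0.000221).

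A second Crem region moved the other way. It lay 56501 bp inside the gene at chr18:3280617-3281457, without a CpG island, and was named after its values were seen. Its summit fell in an annotated untranslated region of Crem. Starts of single transcripts were not examined, so a further start of Crem here was not tested. It measured 142 and 188 in the 0 h libraries, 46 and 29 in those of 18 h, 37 and 34 in those of 48 h, and 46 and 35 in those of 120 h, so that both 0 h libraries were above all others. At 120 h it was lower than at 0 h by a log2 change of -2.03 ± 0.37 (limma, adjusted p = 1.07e-06) as deposited and -1.14 ± 0.28 relative to the library median (adjusted p = 0.00863). Tbpl1, the other regulator, measured 219 and 313 in the 0 h libraries, 82 and 115 in those of 18 h, 84 and 107 in those of 48 h, and 166 and 143 in those of 120 h, a change of -0.76 at 120 h that did not pass the test on either scale.

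Odf2, a protein of the outer dense fibres and also of the centriole, had the second largest positive log2 change of the 12 at 120 h against 0 h on both scales, and the highest start region at that time. Its start region measured 349 and 451 in the 0 h libraries, 191 and 218 in those of 18 h, 209 and 209 in those of 48 h, and 587 and 433 in those of 120 h. The 120 h and 0 h libraries overlapped and both were above the others. The log2 change against 0 h was 0.35 ± 0.37 as deposited (limma, adjusted p = 0.458) and 1.24 ± 0.20 relative to the library median (adjusted p = 0.000914), and against 48 h it was 1.27 as deposited (adjusted p = 0.0120), a call that was lost without 48 h replicate 1 (0.208), 48 h replicate 2 (0.0804) or 120 h replicate 1 (0.0805).

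The rest of the flagellum group followed no common course. Spag4, a nuclear envelope protein at the base of the tail, measured 140 and 170 in the 0 h libraries, 86 and 106 in those of 18 h, 73 and 89 in those of 48 h, and 162 and 114 in those of 120 h, with the 0 h and 120 h libraries overlapping. Its change against 0 h was -0.18 as deposited and 0.71 ± 0.19 relative to the library median (limma, adjusted p = 0.0122, and 0.0562 and 0.0732 without 0 h replicate 1 and without 120 h replicate 2). Tekt2, one of the tektins that line the tail's microtubules, measured 236 and 243 in the 0 h libraries, 98 and 132 in those of 18 h, 86 and 104 in those of 48 h, and 129 and 90 in those of 120 h. Both 0 h libraries were above all others, and the change at 120 h was -1.15 ± 0.37 as deposited (adjusted p = 0.00639, and 0.0653 and 0.0725 without 0 h replicate 2 and without 120 h replicate 2) and -0.26 relative to the library median, where it did not pass.

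Tekt1 and Tekt3 lost the start peak in 1 library. At Tekt3 it measured 280 and 340 in the 0 h libraries, 88 and 121 in those of 18 h, 72 and 87 in those of 48 h, and 92 in 120 h replicate 1. At Tekt1 it measured 120 and 188 in the 0 h libraries, 42 and 46 in those of 18 h, 41 and 38 in those of 48 h, and 49 in 120 h replicate 1. Neither had a peak in 120 h replicate 2, the library with the fewest peaks, and without that library 17 genes instead of 13 had a start peak at 120 h (43.6%, beside 54.4% of all genes). Inside Tekt1, 6776 bp from its start, a region named after its values were seen measured 188 and 286 in the 0 h and 88 and 62 in the 120 h libraries, a change of -1.65 ± 0.37 as deposited (limma, adjusted p = 7.33e-05) and of -0.76 ± 0.21 relative to the library median (adjusted p = 0.0135). Relative to the median the call was lost without 0 h replicate 2 (0.0982) or 120 h replicate 1 (0.0533).

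In the acrosome group, Zpbp and Zpbp2, which bind the egg coat, had start regions whose 120 h libraries lay above those of 48 h. Zpbp measured 171 and 187 in the 0 h libraries, 95 and 103 in those of 18 h, 75 and 58 in those of 48 h, and 118 and 104 in those of 120 h. Zpbp2 measured 313 and 383 in the 0 h libraries, 138 and 183 in those of 18 h, 166 and 156 in those of 48 h, and 330 and 217 in those of 120 h. The 0 h and 120 h libraries overlapped in Zpbp2 and not in Zpbp, and neither passed the test against 0 h on either scale (log2 changes of -0.69 and -0.37 as deposited, 0.20 and 0.52 relative to the library median).

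Izumo1 and Dpy19l2 were different in this respect. Izumo1, the sperm protein that binds the egg's receptor, measured 132 and 206 in the 0 h libraries, 56 and 75 in those of 18 h, 68 and 73 in those of 48 h, and 80 and 63 in those of 120 h. Dpy19l2, which anchors the acrosome to the nucleus, measured 178 and 328 in the 0 h libraries, 96 and 144 in those of 18 h, 82 and 136 in those of 48 h, and 102 and 64 in those of 120 h. In both the 0 h libraries were above all others, and the 120 h libraries overlapped those of 48 h.

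The log2 change of Dpy19l2 at 120 h against 0 h was -1.58 ± 0.37 as deposited (limma, adjusted p = 0.000149) and -0.69 ± 0.25 relative to the library median (adjusted p = 0.0395). The first call was lost without 0 h replicate 2 (0.0631), and the second without that library (0.303) or either 120 h library (0.0883 and 0.135). For Izumo1 it was -1.22 as deposited (adjusted p = 0.00393, and 0.160 without 0 h replicate 2) and -0.33 relative to the library median, where it did not pass. Spaca1, a membrane protein of the acrosome, had a start peak of 88 and 115 in the 0 h libraries and of 40 and 37 in those of 18 h, and later one of 34 in 48 h replicate 2 and of 35 in 120 h replicate 1. Its later values were close to those of the smallest peaks called.

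Catsper2, a subunit of the sperm calcium channel, had the highest start region of the 12 at 0 h. It measured 602 and 634 in the 0 h libraries, 191 and 298 in those of 18 h, 219 and 217 in those of 48 h, and 461 and 364 in those of 120 h, with 0 h above 120 h and 120 h above the rest. It also lay 142 bp upstream of Pdia3, an enzyme of protein folding, and the change at 120 h was -0.59 as deposited and 0.30 relative to the library median, which did not pass the test on either scale.

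Catsper3 had a region 11309 bp inside the gene, also named after its values were seen. It measured 295 and 240 in the 0 h libraries, 93 and 91 in those of 18 h, 80 and 100 in those of 48 h, and 107 and 38 in those of 120 h. Both 0 h libraries were above all others, and the change at 120 h was -2.06 ± 0.37 as deposited (limma, adjusted p = 6.82e-07) and -1.17 ± 0.28 relative to the library median (adjusted p = 0.00707), the largest falls among the 28 regions. Relative to the median the call was lost without 0 h replicate 1 (0.0577) or 120 h replicate 2 (0.0859).

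Tssk6, a kinase of sperm chromatin condensation, measured 276 and 326 in the 0 h libraries, 119 and 161 in those of 18 h, 104 and 133 in those of 48 h, and 270 and 178 in those of 120 h at its start. Klhl10, a partner of a ubiquitin ligase in spermatids, measured 101 and 156 in the 0 h libraries, 50 and 70 in those of 18 h, 67 and 54 in those of 48 h, and 144 and 95 in those of 120 h. Annotated starts of Klhl10 differ. Its summit was at chr11:100441056, and the RefSeq span of the gene begins at 100441128, upstream of the start used for the distance below. In the GENCODE annotation the nearest start was that of Nt5c3b, 752 bp from the summit. In both genes the 120 h libraries were above those of 18 h and 48 h. For Tssk6 the change at 120 h against 0 h was -0.45 as deposited and 0.44 relative to the library median, which did not pass. For Klhl10 it was -0.10 as deposited and 0.79 ± 0.23 relative to the library median (limma, adjusted p = 0.0169, and 0.120 and 0.0791 without 0 h replicate 1 and without 120 h replicate 2), but its summit lay 868 bp upstream, 33 bp inside Nt5c3b.

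Several more starts were open in part of the libraries. Tssk3, a further kinase of the spermatid, had a start peak of 95 and 190 in the 0 h libraries, 78 in 18 h replicate 2, 73 and 74 in those of 48 h, and 89 and 78 in those of 120 h, with its summit 330 bp inside Fam229a. Hspa1l had one of 109 and 172 in the 0 h libraries, 73 and 68 in those of 18 h, 49 and 59 in those of 48 h, and 114 in 120 h replicate 1, with its summit 28 bp inside Hspa1a, a heat shock protein gene. Both regions thus also lay at the start of a neighbour.

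Pgk2 had a start peak of 60 and 95 at 0 h and of 42 in 18 h replicate 2, and none later. Acr had one of 37 in 18 h replicate 1 and of 36 in 48 h replicate 2, and Tekt4, a further tektin, one of 60 in 0 h replicate 1 and of 58 in 48 h replicate 1. None of these 3 starts had a peak in both libraries of a later timepoint. For Tekt4 the RefSeq span begins upstream of the start used here. Catsper1 had peaks in 5 libraries and none of them at its start.

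**Figure D4:**
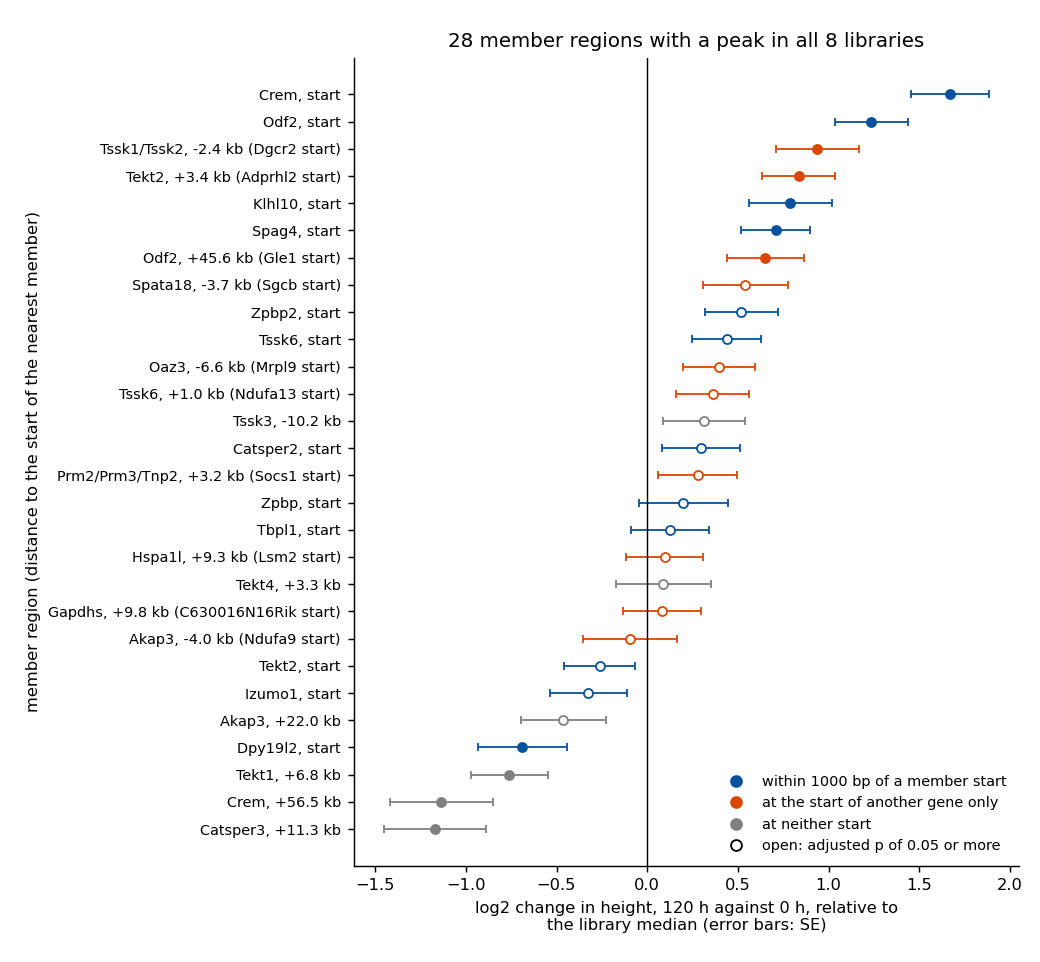
Each point is 1 of the 28 regions that every library called, with the log2 change in height at 120 h against 0 h relative to the library median and its SE. Filled points have an adjusted p under 0.05 (limma): 7 on the right, led by Crem at 1.67, of which 3 lie at the start of another gene and not of a spermatid gene, and 4 on the left, down to -1.17 at Catsper3.

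Of the 7 regions that were higher at 120 h relative to the library median, 4 lay at the starts of Crem, Odf2, Klhl10 and Spag4, and the other 3 at the starts of Dgcr2, Adprhl2 and Gle1, neighbours of Tssk1, Tekt2 and Odf2. Of the 4 that were lower, 1 lay at the start of Dpy19l2 and 3 inside Crem, Tekt1 and Catsper3, away from the starts assigned to these genes. With any library left out, both Crem regions and the Odf2 start passed again, and the other 8 regions lost the call without at least 1 of the 0 h or 120 h libraries.

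The promoters of the spermatid genes were set beside these results, with the RefSeq sequence from 250 bases before to 50 bases after the start (GRCm38.p6). The table held 34 of the 39 genes and 32851 promoters in all. The ratio of observed to expected CpG had a median of 0.344 among the 34, beside 0.384 for all promoters. It was 0.615 for the 11 genes with a start peak in all 8 libraries and 0.105 for the 13 with none, beside 0.797 and 0.223 for all promoters of these kinds. The sides were not counted alike. Each spermatid gene had a single promoter, while other genes could have several, each counted by the peaks of its gene symbol. Symbols without a match counted as having none. Each of the 13 genes without a start peak had a ratio of at most 0.228, among them Prm1 at 0.0487, Prm2 at 0.137 and Tnp2 at 0.174. Of the 11 with a start peak in all libraries, Klhl10 alone had a lower ratio than that (0.0976). Its promoter, chr11:100441674-100441973, does not overlap its start region, chr11:100440704-100441507.

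**Figure D5:**
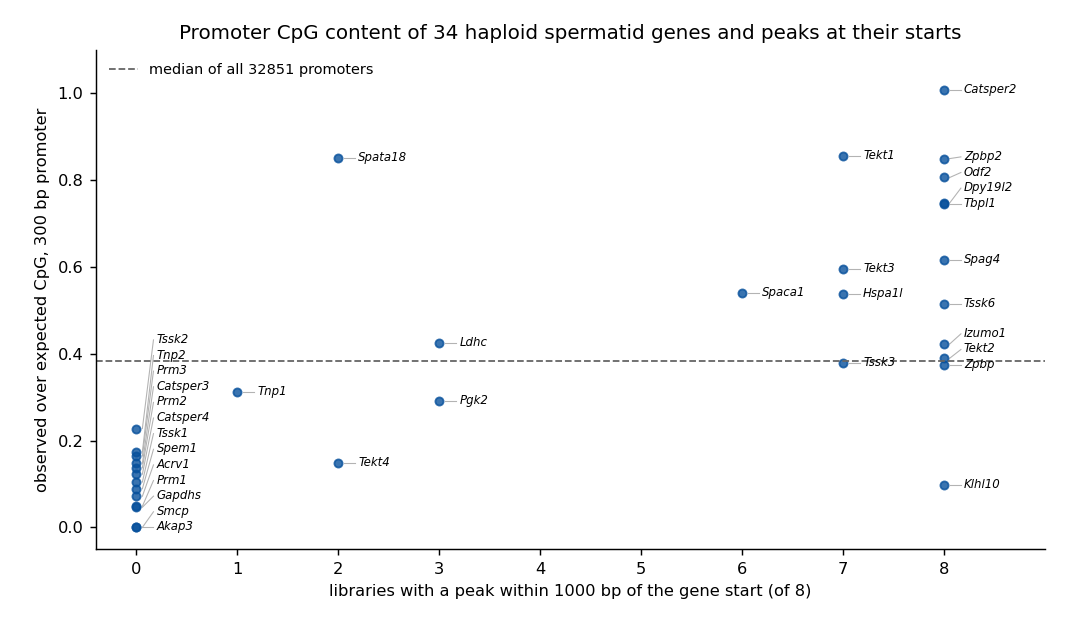
The ratio of observed to expected CpG in the 300 bases around the start is plotted against the number of libraries with a peak within 1000 bp of the start for 34 genes, 1 point each. The dashed line is the median of 32851 promoters, 0.384. The 13 genes at 0 libraries all lie at or below 0.228, and 10 of the 11 genes at 8 libraries lie at or above 0.374.

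4 sets of letters were searched: the CREM palindrome TGACGTCA, its core TGACG, which the palindrome contains on both strands, and the GC box GGGCGG, on both strands, and TATAAA on the sense strand. The palindrome was found in 2 of 34 promoters, Izumo1 and Spag4, beside 1.79% of all promoters. The core was found in 12 of 34, beside 20.8%. It was in 7 of the 11 with a start peak in all 8 libraries, beside 33.7% of all promoters of this kind. It was in 5 of the 10 with a start peak in 1 to 7 libraries. Of the 13 with none, 0 held it, beside 14.6% of all promoters with none. The core itself holds a CpG. The GC box was found in 12 of 34, beside 35.7%, and TATAAA in 0 of 34, beside 8.32%. Such matches describe the letters only. Variants of the palindrome or its core with other letters were not searched, so promoters without these letters may still hold such variants.

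3 promoters with a peak in all 8 libraries are shown beside those of Prm1 and Tnp1, whose starts had no peak in both libraries of any timepoint, to show how they differ in CpG and in these letters. The palindrome, its core and the GC box are in capitals. Odf2 (chr2:29889470-29889769, plus strand) rose relative to the library median at 120 h and holds 2 cores and 3 GC boxes, Spag4 (chr2:156064963-156065262, plus strand) holds the palindrome 37 bases before the start, and Izumo1 (chr7:45621561-45621860, plus strand) holds it 96 bases before the start. Prm1 (chr16:10796774-10797073, minus strand) and Tnp1 (chr1:73015850-73016149, minus strand) hold none of these letters. Prm2 and Tnp2, whose promoters are not shown, each hold 1 GC box.
Odf2: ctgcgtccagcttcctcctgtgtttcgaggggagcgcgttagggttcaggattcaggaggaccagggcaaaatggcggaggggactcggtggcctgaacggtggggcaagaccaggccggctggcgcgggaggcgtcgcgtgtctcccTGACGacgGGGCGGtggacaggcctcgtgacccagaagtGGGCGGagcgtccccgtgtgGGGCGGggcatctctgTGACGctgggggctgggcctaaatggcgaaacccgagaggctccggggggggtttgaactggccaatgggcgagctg
Spag4: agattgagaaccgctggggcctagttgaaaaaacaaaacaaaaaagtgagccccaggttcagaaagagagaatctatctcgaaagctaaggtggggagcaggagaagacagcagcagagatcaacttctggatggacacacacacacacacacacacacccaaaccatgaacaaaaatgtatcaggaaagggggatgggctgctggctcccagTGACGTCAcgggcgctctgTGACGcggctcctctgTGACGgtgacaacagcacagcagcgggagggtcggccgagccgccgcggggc
Izumo1: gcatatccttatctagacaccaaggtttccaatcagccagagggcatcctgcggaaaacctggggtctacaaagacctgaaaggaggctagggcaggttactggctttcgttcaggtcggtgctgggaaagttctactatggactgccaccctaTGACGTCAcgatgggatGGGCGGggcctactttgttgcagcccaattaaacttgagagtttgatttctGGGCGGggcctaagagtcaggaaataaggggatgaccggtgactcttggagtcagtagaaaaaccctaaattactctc
Prm1: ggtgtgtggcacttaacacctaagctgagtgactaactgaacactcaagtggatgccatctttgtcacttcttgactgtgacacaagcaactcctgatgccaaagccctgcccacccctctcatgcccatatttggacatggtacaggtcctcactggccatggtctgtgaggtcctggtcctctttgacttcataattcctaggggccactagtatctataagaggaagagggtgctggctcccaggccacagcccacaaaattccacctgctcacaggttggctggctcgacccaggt
Tnp1: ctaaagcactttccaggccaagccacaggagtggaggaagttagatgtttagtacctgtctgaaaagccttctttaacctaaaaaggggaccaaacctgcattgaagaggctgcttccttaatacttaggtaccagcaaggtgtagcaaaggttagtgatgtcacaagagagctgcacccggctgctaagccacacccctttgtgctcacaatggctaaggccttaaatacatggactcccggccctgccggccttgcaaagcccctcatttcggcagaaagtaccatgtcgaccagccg

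The share of G and C was 68% in the Odf2 promoter, 55.3% in Spag4, 50.7% in Izumo1, 52.7% in Prm1 and 50.7% in Tnp1. The ratio of observed to expected CpG was 0.806, 0.615, 0.423, 0.0487 and 0.313 in the same order. The 5 were chosen with their values known, and whether the ratio goes with the change at 120 h was not tested. Dpy19l2, which was lower relative to the library median, had a ratio of 0.748. Klhl10, which was higher, had 0.0976, but that promoter does not overlap its start region.

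Regions seen at 0 h and in no later library numbered 10 of 90 (11.1%, beside 17.8% of all regions with an assigned gene). They belonged to Tekt1 (2 regions), Spata18 (2), Spem1 (2), Hspa1l, Tekt4, Zpbp2 and Tekt3. By the lower of the 2 libraries, the 5 highest were a region 15841 bp from the start of Hspa1l, a testis chaperone, at 92 and 78, one 8456 bp upstream of Tekt1 at 69 and 141, one at the start of Spata18 at 66 and 74, one 12666 bp from the start of Tekt4 at 63 and 57, and one 3307 bp upstream of Spem1 at 48 and 67. Of the 23 regions at the start of a spermatid gene, 1 had this pattern (4.35%, beside 8.27%), that of Spata18.

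Regions seen in both 120 h libraries and no other numbered 2 of 90 (2.22%, beside 1.06%). One lay 3103 bp upstream of Hspa1l and 2556 bp from the start of its neighbour Hspa1a at chr17:34969444-34969891, with heights of 141 and 72. The other lay 26641 bp from the start of Ldhc, past its end, at chr7:46887694-46888093, with heights of 94 and 47. No start region of a spermatid gene was seen at 120 h alone. At the start of Ldhc itself a peak of 75 and 108 at 0 h was followed by none at 18 h and 48 h and by one of 39 in 120 h replicate 2.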

How the data were processed

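Accessible chromatin was profiled in 8 libraries, 2 at each of 0, 18, 48 and 120 h after RA. The authors aligned reads to mm10 with BWA (version 0.7.12 in the submitters' processing notes), removed duplicates, and called peaks in each library with MACS2 2.1.0 without a control. The deposited table gives each peak's coverage signal at the summit and its mean over the peak, after the authors had reduced all libraries to the same number of tags, together with the genes assigned to it. Read counts were not analysed here, so no counting interval is given, and the depth of a peak appears in its signal alone. The methods and the sample labels give different cell numbers per library and different strain backgrounds.

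The genes and the lists were chosen with earlier results of these data known. Peaks overlapping by at least 1 bp were merged. A timepoint counted if both libraries held a peak, and a start peak lay within 1000 bp of the transcription start. Distances, assigned genes and CpG islands were those of the table. Peak height was the log2 of the highest summit in a region, compared by limma 3.58.1 (R 4.3.3, lmFit and eBayes, all 8 libraries, Benjamini-Hochberg over 15536 regions, threshold 0.05). As deposited, eBayes gave all regions the same variance, and therefore 1 SE. The p-values as deposited treat that variance as known from 15536 regions, although each timepoint had 2 libraries. Replicates also differed by shifts that the regions share, as in the median log2 heights of 7.38 and 6.73 at 120 h. These p-values can therefore be too small. Merging and the fit were tested on simulated data. The simulated heights held no shift shared by the regions of a library, so they do not test these p-values in that respect. Values per library, genes with a start peak in all libraries, at 0 h only or at 120 h only, and at most 6 other postmeiotic genes past the threshold were named by rule. A few regions away from the starts assigned to their genes were named after their values were seen. Promoters were RefSeq sequences of GRCm38.p6. Python 3.11.15 with pandas 2.3.3 and numpy 2.4.6 was used.

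Alternatives were median centring, quantile normalization, the mean signal over the peak, a replicate block, missing heights set to the lowest value, equal numbers of highest peaks, merging at 50% of the shorter peak, a peak in either replicate, a summit value of at least 50, start windows of 500 and 3000 bp, peaks inside the gene, and each library left out. Centring with a replicate block, and centring with each library left out, were chosen after seeing the data. Browser tracks were not used.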

Additional observations from a re-analysis of the deposited data

How the results depend on the processing

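As deposited, the numbers of regions lower than at 0 h at 18, 48 and 120 h were 26, 28 and 8 of 28. Centring on the library median and quantile normalization gave 0, 0 and 4, and 0, 0 and 1, the last beside 10.2% of all regions. With missing heights at the lowest value, 49, 54 and 34 of 61 regions were lower, beside 81.5%, 83.9% and 68.6% of all regions so treated. Of the 61, 19 had a peak in both libraries of 0 h and of no later timepoint, and 2 in both of 120 h alone. Where such regions lack a peak, the setting itself makes the height low, so it cannot test their change. The number higher at 120 h than at 0 h was 0 as deposited, 7 after centring, 5 after quantile normalization (beside 8.74%) and 3 of 61 with missing heights at the lowest value (beside 2.44%). At 120 h against 48 h, 7 were higher as deposited, 4 after centring, 1 after quantile normalization (beside 0.444%) and 4 of 61 with missing heights at the lowest value (beside 1.6%). After centring 2 were lower, against 0 as deposited.

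With each library left out, the ranges were 9 to 28, 17 to 28 and 4 to 12 lower at these times against 0 h, and 0 to 1 lower and 1 to 15 higher at 120 h against 48 h. The lowest were reached at 18 h and 48 h without 0 h replicate 2 (9 and 17), and without 18 h replicate 1 the number at 18 h was 11. At 120 h, leaving out 0 h replicate 2 gave 4 (beside 23.9% of all regions) and leaving out 120 h replicate 2 gave 5 (beside 23.1%). Without 48 h replicate 1, 48 h replicate 2 or 120 h replicate 1, 1 was higher at 120 h than at 48 h, and without 120 h replicate 2, 15. Relative to the library median, chosen after seeing the data, the ranges were 2 to 4 lower and 2 to 8 higher at 120 h against 0 h, and 0 to 2 lower and 0 to 4 higher against 48 h. The 0 higher was reached without 48 h replicate 2 (beside 0% of all regions). The 0 lower was reached without 48 h replicate 1, 48 h replicate 2 or 120 h replicate 2 (beside 1.22%, 0% and 0.972%).

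At single regions, 8 of the 17 described changed sign at 120 h against 0 h after centring: Tbpl1 0.13, Zpbp 0.20, Zpbp2 0.52, Klhl10 0.79, the Socs1 region 0.28, Catsper2 0.30, Spag4 0.71 and Tssk6 0.44. After quantile normalization Tbpl1 had 0.060, Zpbp 0.26, Zpbp2 0.25, Klhl10 0.82, the Socs1 region 0.028, Spag4 0.71 and Tssk6 0.24. With the mean signal Klhl10 had 0.13, Spag4 0.10 and the Dgcr2 region -0.022. Without single libraries Klhl10 ranged from -0.42 to 0.21, Spag4 from -0.44 to 0.071 and the Dgcr2 region from -0.31 to 0.41.

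The differences between the 2 replicates of a timepoint had r from -0.22 to 0.25 over 6 pairs of timepoints. A correlation over regions cannot show a shift that all regions of a library share, so it cannot decide whether the numbers pair the libraries. With the replicate block 26, 28 and 8 regions were lower at 18, 48 and 120 h against 0 h, beside 90.4%, 92.1% and 41.1% of all regions. At 120 h against 48 h 6 were higher, beside 17.2%. Centring with the block gave 0, 0 and 4 lower against 0 h, beside 0.251%, 1.73% and 16.4%. At 120 h it gave 7 higher against 0 h, beside 24%, and 2 lower and 4 higher against 48 h, beside 8.17% and 10.5%.

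Counting only peaks inside the gene or within 1000 bp of its start gave 19 genes at 18 h, 18 at 120 h and 16 at all 4 timepoints in place of 30, 28 and 26, beside 56%, 56.4% and 50.4% of all genes, so that the spermatid genes were then below all genes and not above. Genes counted at 0 h only numbered 2 with either replicate (beside 4.83% of all genes) and 0 with equal numbers of peaks (beside 1.27%), in place of 4. With each library left out they numbered 2 to 5, beside 5.38% to 9.24%, with 2 reached without 48 h replicate 1 (beside 6.06%). Starts open at 0 h only numbered 1 with equal numbers of peaks (beside 1.43% of all genes) and 5 with a summit of at least 50 (beside 11.8%), in place of 3. With each library left out such starts numbered 2 to 4, beside 5.95% to 10%. Regions at another gene's start and not the gene's own numbered 17, beside 32 nearer to another gene, and neither was counted over all regions. Heights where no peak was called are not known, and 2 libraries a timepoint limit what a comparison can show.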

Other observations

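Of the other postmeiotic genes, 10 regions at a start had a peak in all 8 libraries, and 3 of them were lower at 120 h than at 0 h as deposited (limma), beside 44.8% of all regions. Relative to the library median 2 were lower and 4 higher (limma), beside 15.8% and 23%. The 4, named after their values were seen, were Slc26a8 (1.06), Catsperd (0.82), Pcsk4 (0.77) and Sun3 (0.68, log2 change). Tcp11, a gene of sperm motility, measured 395 and 625 in the 0 h libraries, 263 and 397 in those of 18 h, 149 and 255 in those of 48 h, and 140 and 88 in those of 120 h. Both 0 h libraries were above those of 48 h and 120 h, and the log2 change at 120 h was -2.16 ± 0.37 (limma, adjusted p = 1.88e-07) and -1.27 ± 0.23 relative to the library median (adjusted p = 0.00168). Ropn1l, a protein of the fibrous sheath, measured 288 and 300 in the 0 h and 126 and 78 in the 120 h libraries, and its change was -1.57 as deposited and -0.68 ± 0.20 relative to the library median (limma, adjusted p = 0.0163). Spag6, a protein of the central apparatus of the tail, measured 209 and 374 in the 0 h and 196 and 122 in the 120 h libraries, a change of -0.85 ± 0.37 as deposited (limma, adjusted p = 0.0476) and 0.036 relative to the library median, where it did not pass.

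Of the 90 regions of the haploid spermatid genes, 23 had a peak in 1 library alone (25.6%, beside 24.4% of all regions with an assigned gene): 7 in 0 h replicate 1, 7 in 0 h replicate 2, 7 in 120 h replicate 1, 0 in 120 h replicate 2, 1 in 18 h replicate 2 and 1 in 48 h replicate 2. Both 120 h libraries share the dose and the time, and they held 39551 and 24643 peaks.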
